A study of Mus musculus with 4 samples.

Results

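The subcortical maternal complex genes are 7 genes of the mouse oocyte: Padi6, Nlrp5, Ooep, Tle6, Khdc3, Zbed3 and Nlrp2. They were taken by name from a table of 25587 reference genes. 6 were listed under the symbol used here, and Khdc3 was listed under its older symbol 2410004A20Rik, a synonym in RefSeq at the same place in the genome. RNA-Seq of wild-type C57BL/6 oocytes had been done to describe transcription while the oocyte grows, with 1 library for each of 4 stages: non-growing oocytes (NGOs), an earlier and a later sample of growing oocytes (GO1 and GO2), and fully grown germinal vesicle oocytes (FGOs). The mice were of the C57BL/6Babr colony and 5 to 20 days old over the whole series, no agent or engineered allele is named for any library, and each library is total RNA depleted of ribosomal RNA from a pool of oocytes. A dUTP protocol gave the libraries of NGO and FGO, whereas a ScriptSeq kit was used for both GO samples. Stage and protocol therefore cannot be told apart between NGO and GO1 or between GO2 and FGO. With 1 library per stage no value has a replicate check, no p value was computed, and every interval below covers counting error only.

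The subcortical maternal complex is a protein assembly that lies beneath the plasma membrane of the growing oocyte and stays in the outer cortex of the cleaving embryo. NLRP5 (MATER), OOEP (FLOPED), TLE6 and KHDC3 (FILIA) form its core, and PADI6 is a main component of the cytoplasmic lattices, fibrous stores in the oocyte to which proteins of the complex also belong. The RNAs are made in the oocyte, and loss of several of these genes in the mother stops or disturbs early cleavage.

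Values are deposited as RPKM, which divides reads by exon length and library size, so that levels can be compared between genes, and whole counts were recovered from them. Recovered counts on listed genes came to 69675719 in NGO, 82523193 in GO1, 152253073 in GO2 and 78104108 in FGO. The fitted library totals were 110595208 in NGO, 126796746 in GO1, 241385711 in GO2 and 119629249 in FGO. Counts on this scale are not numbers of independent reads. In each library the fitted total exceeded the uniquely mapped reads given by the study, even with both mates of a pair counted. The counting intervals are therefore too narrow, and a separation between close values by these intervals alone is uncertain. Each complex gene had between 15273 and 940867 counts in a library, and the 95 % Poisson interval of a level, taken on these counts, reached at most 1.6 % to either side. Oocyte markers (Ddx4, Dazl, Zp1, Zp2, Zp3, Gdf9, Bmp15) summed to RPKM of 5999, 3811, 3738 and 3772 in NGO, GO1, GO2 and FGO. Granulosa markers summed to between 2.56 and 10.6 RPKM, with the highest sum in FGO, where Cyp19a1 alone had 6.08. Theca and stroma markers summed to 5.55 in NGO and at most 0.471 elsewhere. The part of either of these marker sets in the results below was not tested.

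3 of the 7 genes have a RefSeq start site at exactly the start of the deposited gene model, and the 200 bases before that start (RefSeq, GRCm38.p6, read 5′ to 3′ on the strand of the gene) are printed for them. They comprise the gene with the highest level, Padi6 (minus strand, chr4:140742644-140742843), its fellow high member Nlrp5 (plus strand, chr7:23385689-23385888), and the member with the lowest level, Nlrp2 (minus strand, chr7:5351036-5351235). Capitals mark the E-box CANNTG, the letters that basic helix-loop-helix factors of the oocyte such as FIGLA and SOHLH1 can bind.
Padi6: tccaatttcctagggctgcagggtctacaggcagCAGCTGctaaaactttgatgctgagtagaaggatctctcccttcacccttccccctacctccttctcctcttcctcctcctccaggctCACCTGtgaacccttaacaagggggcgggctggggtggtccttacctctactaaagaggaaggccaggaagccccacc
Nlrp5: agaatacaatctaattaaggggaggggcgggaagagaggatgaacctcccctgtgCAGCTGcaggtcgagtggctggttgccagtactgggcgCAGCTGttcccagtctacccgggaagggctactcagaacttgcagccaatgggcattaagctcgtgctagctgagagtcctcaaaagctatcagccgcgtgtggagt
Nlrp2: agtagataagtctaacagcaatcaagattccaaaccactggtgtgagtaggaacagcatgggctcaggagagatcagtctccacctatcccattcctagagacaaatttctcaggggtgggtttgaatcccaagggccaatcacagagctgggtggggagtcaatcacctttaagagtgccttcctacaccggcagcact
The Padi6 stretch holds an E-box of the form CAGCTG with its first base 166 bases before the start and another, CACCTG, 78 bases before it. Nlrp5 has CAGCTG at both of its E-boxes, 145 and 107 bases before the start, and also the letters TAATTA, which homeobox factors can bind. The Nlrp2 stretch holds no E-box, and none of the other motifs searched.

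In the 250 bases before the nearest RefSeq start, on both strands, 6 of the 7 genes held at least 1 CANNTG, beside 66.2 % of 32851 promoter windows in the table. CAGCTG, which is also a CANNTG, was found in 2 of 7 genes (Padi6 and Nlrp5) and in 13.0 % of all windows. In these nearest windows TAATTA was found in Nlrp5 only (4.84 % of all windows), TAATTG in Ooep only (7.17 %) and TATAAA in Zbed3 only (12.4 %). The E-boxes of Tle6 were both CACGTG, 183 and 119 bases before its start. The start sites of Ooep, Tle6, Khdc3 and Zbed3 lay 137, 173, 562 and 412 bases from those of the deposited models. RefSeq gave Nlrp5 and Tle6 1 more start each and Zbed3 2 more. The windows of these further starts, which are not in the counts of genes above, also held CAGCTG at 1 start each of Tle6 and Zbed3, and TATAAA at the further start of Nlrp5. A match of letters is a description of the sequence and says nothing about binding.

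The complex genes were among the most abundant RNAs of the oocyte at every stage. 6 of the 7 ranked within the first 100 of all 25587 listed genes in each library, and the exception, Nlrp2, ranked between 157 and 744. Their median RPKM was 494.9 in NGO, 398 in GO1, 263 in GO2 and 291 in FGO, where the median over all listed genes was at most 0.173. Summed over the 7 genes the RPKM was 5708 in NGO, 3466 in GO1, 2862 in GO2 and 2911 in FGO. This was 3.03 %, 1.99 %, 1.69 % and 1.55 % of the RPKM of all genes, or 2.39 %, 1.40 %, 1.21 % and 1.18 % of recovered counts. In bulk RNA, fewer cells of a type and less RNA per cell cannot be told apart, and a share of the library is not an amount per oocyte.

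**Figure D1:**
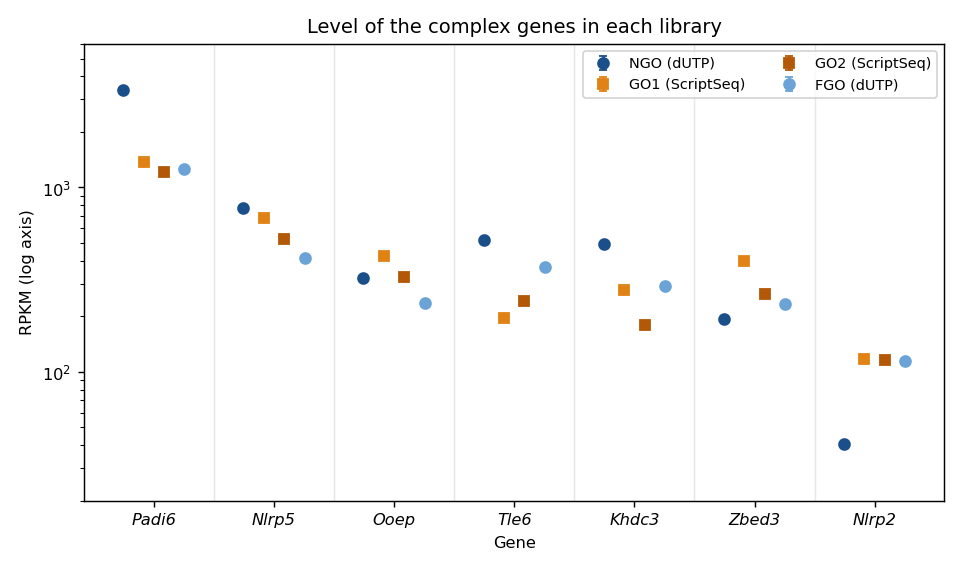
RPKM (log axis) of the 7 complex genes (horizontal axis) in NGO and FGO (circles, dUTP) and in GO1 and GO2 (squares, ScriptSeq). Error bars are 95 % Poisson intervals and are smaller than the symbols; Padi6 is the highest gene in each library and Nlrp2 the lowest, and Nlrp2 in NGO stands at 40.7.

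Padi6 encodes a peptidylarginine deiminase of the oocyte that is needed for the cytoplasmic lattices. Its gene spans chr4:140727355-140742643 on the minus strand (GRCm38, with 2532 exonic bases), and its RPKM was 3360 in NGO, 1371 in GO1, 1207 in GO2 and 1253 in FGO. Its rank among all listed genes was 3 in NGO, 6 in GO1 and 5 in GO2 and FGO. NGO stood apart from the other 3 libraries, which lay within 1207 to 1371. From NGO to FGO Padi6 was 2.58-fold lower (log2 change -1.37, 95 % counting interval -1.37 to -1.36), the largest decrease among the complex genes, and from GO1 to GO2 it was 1.16-fold lower.

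Nlrp5 encodes an NLR family protein in the core of the complex. The gene lies on the plus strand (chr7:23385889-23441922, with 3541 exonic bases), and its RPKM was 777 in NGO, 680 in GO1, 528 in GO2 and 414 in FGO. It was the second of the complex genes in each library and ranked between 16 and 35 of all genes. It was the only 1 of the 7 whose level was lower at each step from NGO through GO1 and GO2 to FGO. This order was held by 9.65 % of the 16763 genes with at least 20 counts over the 4 libraries. The steps from NGO to GO1 and from GO2 to FGO also cross protocols, so stage and protocol cannot be told apart there. The log2 change was -0.85 from NGO to FGO (1.80-fold lower) and -0.40 from GO1 to GO2.

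Ooep encodes a KH domain protein of the core. It lies on the minus strand of chromosome 9 (chr9:78376109-78378725, 2138 exonic bases) and had RPKM of 325 in NGO, 426 in GO1, 325 in GO2 and 236 in FGO. The NGO and GO2 intervals overlapped, so these libraries were not separable by counting error, while GO1 was highest and FGO lowest. The log2 change was -0.40 from NGO to FGO and -0.42 from GO1 to GO2, both close to 1.3-fold lower.

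Tle6 encodes a relative of the Groucho corepressors that binds OOEP and NLRP5 in the core. From chr10:81590904-81601073 on the minus strand (3088 exonic bases) it gave RPKM of 517 in NGO, 196 in GO1, 242 in GO2 and 368 in FGO. Both dUTP libraries lay above both ScriptSeq libraries. It was 1.35-fold lower in FGO than in NGO (log2 change -0.43) but 1.20-fold higher in GO2 than in GO1 (log2 change 0.27), the only complex gene higher in GO2.

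Khdc3 encodes a further KH domain protein, which joins the core by binding NLRP5. Its model is on the plus strand of chromosome 9 (chr9:73101836-73104443, 2055 exonic bases), and the RPKM was 495 in NGO, 277 in GO1, 180 in GO2 and 291 in FGO. Here too both dUTP libraries lay above both ScriptSeq libraries, with GO2 lowest. It was 1.64-fold lower in FGO than in NGO (log2 change -0.71) and 1.57-fold lower in GO2 than in GO1 (log2 change -0.65). The last 715 bases of its span overlap the listed gene Gm20509 on the same strand, which had RPKM of 271, 50.3, 54.3 and 172 in NGO, GO1, GO2 and FGO, and some reads may belong to either gene.

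Zbed3 encodes a BED-type zinc finger protein, also known as a partner of Axin in WNT signalling, that has been placed in the complex. It lies on the plus strand (chr13:95325237-95337841, 1894 exonic bases), and its RPKM was 194 in NGO, 398 in GO1, 263 in GO2 and 233 in FGO. Both ScriptSeq libraries lay above both dUTP libraries. Zbed3 was 1.25-fold higher in FGO than in NGO (log2 change 0.32) and 1.55-fold lower in GO2 than in GO1 (log2 change -0.63).

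Nlrp2 encodes a second NLR family protein of the complex. It is on the minus strand (chr7:5298554-5351035, 3397 exonic bases), and its RPKM was 40.7 in NGO, 118 in GO1, 116 in GO2 and 115 in FGO. NGO was low, and the other 3 libraries were nearly level, with overlapping intervals in GO2 and FGO. Nlrp2 was 2.94-fold higher in FGO than in NGO (log2 change 1.56, 95 % counting interval 1.53 to 1.58), the largest increase among the complex genes. Its log2 change of -0.06 from GO1 to GO2 turned direction under both scalings by library total (0.017 and 0.00996). It shares 494 bases of its span with Gm5065 on the opposite strand, whose RPKM was between 28.7 and 50.7, and the strand setting of the counting is not given in the sources used here.

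No complex gene passed a change of 4-fold in either pair of libraries made with the same protocol. From NGO to FGO, 0 of 7 were at least 4-fold higher in FGO, beside 8.71 % of 15344 genes tested (those with at least 20 counts in the pair), and 0 of 7 were at least 4-fold lower, beside 5.59 %. At 2-fold, 1 of 7 was higher (Nlrp2), beside 17.9 % of all genes, and 1 of 7 was lower (Padi6), beside 16.8 %. From GO1 to GO2, 0 of 7 were at least 4-fold higher in GO2, beside 1.67 % of 15847 genes, and 0 of 7 were at least 4-fold lower, beside 0.271 %. No complex gene passed 2-fold in this pair, beside 7.05 % of all genes higher and 2.92 % lower. Nothing particular to the complex genes is read from these counts of 7.

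**Figure D2:**
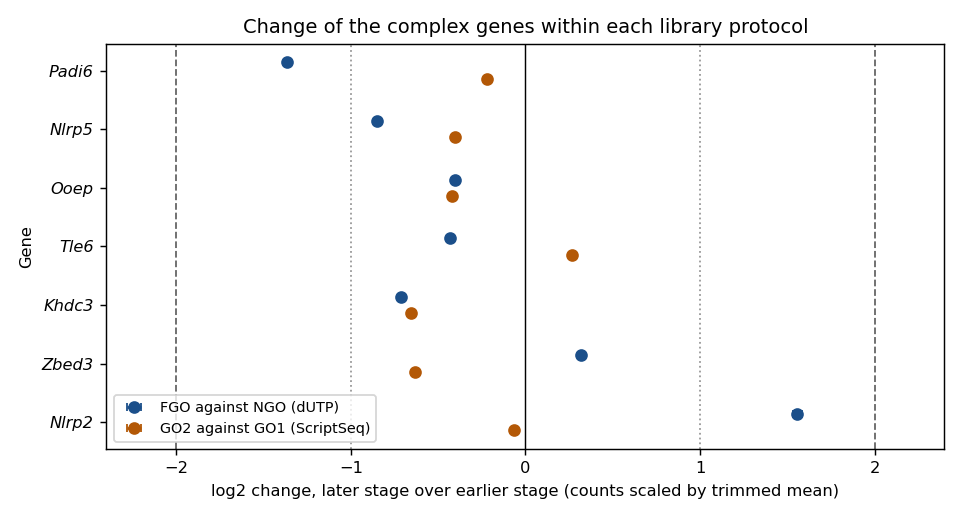
Log2 change of each complex gene (vertical axis) from NGO to FGO and from GO1 to GO2 (horizontal axis, scaling by the trimmed mean); bars are 95 % counting intervals, mostly smaller than the points. Dotted lines mark 2-fold and dashed lines 4-fold: only Padi6 (-1.37) and Nlrp2 (1.56) lie past 2-fold, both from NGO to FGO.

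Smaller differences were mostly downward. 5 of the 7 genes were lower in FGO than in NGO, where 50.3 % of all genes tested were lower, and the median log2 change was -0.43 against -0.01 over all genes. 6 of the 7 were lower in GO2 than in GO1, where 48.5 % of all genes were lower, with a median of -0.40 against 0.02. Padi6, Nlrp5, Ooep and Khdc3 were lower in both pairs, none was higher in both, and Tle6, Zbed3 and Nlrp2 went opposite ways. These counts hold for the main scaling. The GO1 to GO2 change of Nlrp2 (-0.06) turned to 0.017 and 0.00996 under both scalings by library total. Under these scalings Nlrp2 was higher in both pairs. The oocyte markers had a median log2 change of -0.74 from NGO to FGO and of -0.14 from GO1 to GO2. From NGO to FGO 3 of these 7 markers were at least 2-fold lower, beside 16.8 % of all genes, and 1 was higher, beside 17.9 %.

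Across the 2 protocols the levels of 5 genes split completely. Tle6 and Khdc3 were higher in both dUTP libraries than in both ScriptSeq libraries, an order seen in 29.6 % of 16763 genes. Ooep, Zbed3 and Nlrp2 were higher in both ScriptSeq libraries than in both dUTP libraries, an order seen in 21.4 % of genes. Protocol and stage cannot be told apart in these orders, and for Ooep (325.3 in GO2 and 324.6 in NGO) and Nlrp2 (116 in GO2 and 115 in FGO) the nearest values had overlapping counting intervals.

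The genes of the complex did not keep constant proportions to each other. Padi6 made up 58.9 % of the summed RPKM of the complex genes in NGO and 39.6 %, 42.2 % and 43.1 % in GO1, GO2 and FGO. Nlrp2 made up 0.712 % in NGO and between 3.41 % and 4.05 % in the other libraries. The ratio of the highest to the lowest complex gene was accordingly 82.6 in NGO and between 10.4 and 11.6 in the others.

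Without Padi6 the other 6 genes summed to 2348 RPKM in NGO, 2095 in GO1, 1655 in GO2 and 1657 in FGO. The order below Padi6 and Nlrp5 was Tle6, Khdc3, Ooep, Zbed3 and Nlrp2 in both dUTP libraries. In GO1 it was Ooep, Zbed3, Khdc3, Tle6 and Nlrp2, and in GO2 Tle6 stood above Khdc3. Neighbours in these orders differed beyond their counting intervals except for Ooep and Zbed3 in FGO (236 and 233 RPKM).

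**Figure D3:**
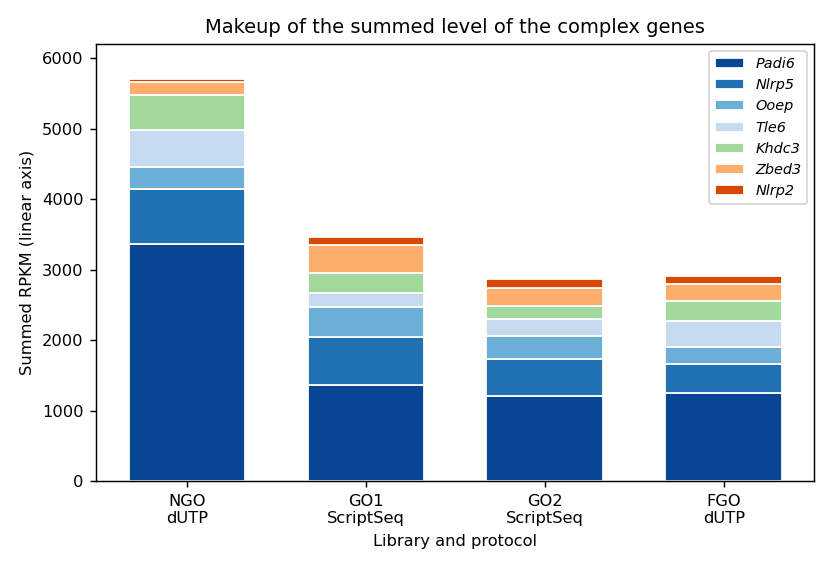
Summed RPKM (linear axis from 0) of the 7 complex genes in each library, stacked by gene, with library and protocol on the horizontal axis. The sum is 5708 in NGO and between 2862 and 3466 in the other libraries, and the Padi6 part is the tallest in each bar.

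The profiles over the 4 libraries were compared as the Euclidean distance between log2(RPKM + 0.1) values centred on the mean of each gene. The closest pair was Nlrp5 and Ooep (distance 0.47), followed by Ooep and Zbed3 and by Padi6 and Khdc3 (both 0.56). Padi6 and Nlrp2 were farthest apart (2.52). Against the median profile of the 7 genes, Nlrp5 was nearest (0.32) and Nlrp2 farthest (1.73). The comparison with this median profile covered 10764 genes, the complex genes included. Outside the complex, the nearest were Ryr3, Snx6, Hcfc2, Cdk11b and Lrpap1, at distances of 0.17 to 0.18. None of the 5 was among the nearest with a pseudocount of 1 or with NGO and FGO only. 4 points define each profile, and 2 protocols are mixed in it.

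Relatives of the complex genes by protein family were mostly far lower, except in the KH domain and NLRP families. Padi6 had 4 listed relatives, the deiminases Padi1 to Padi4, of which the highest was Padi2 with 1.35 RPKM in NGO and 0.347 in FGO, so that Padi6 was 2497 to 3614 times higher in the same library. Padi2 was 3.72-fold lower in FGO than in NGO, and Padi3 had 0 counts in NGO and 27 in FGO. Among the Groucho family corepressors the highest relative of Tle6 was Tle4, with 25.0 RPKM in NGO, 24.8 in GO1, 16.8 in GO2 and 11.1 in FGO. Aes reached 23.2, Tle1 4.55, and Tle2 and Tle3 no more than 0.0669. The median log2 change of these 5 genes from NGO to FGO was -1.11. Of the 5, 0 were at least 4-fold changed, beside 8.71 % of all genes tested higher and 5.59 % lower. At least 2-fold lower were 3, beside 16.8 %, and 1 of these, Tle2, had only 46 counts in NGO and 19 in FGO. Zbed4, Zbed5 and Zbed6 stayed at or below 6.55 RPKM, where Zbed3 was at least 194.

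Of the KH domain relatives, Khdc1b was above Ooep and Khdc3 in each library, Khdc1a was above both in each library but NGO, and Khdc1c and Dppa5a were below both throughout. Khdc1b had RPKM of 516 in NGO, 970 in GO1, 787 in GO2 and 571 in FGO. Khdc1a had 188, 445, 357 and 332 in the same order, and Khdc1c was between 30.4 and 142. All 3 were highest in GO1 and lowest in NGO. Dppa5a, a KH domain gene also expressed in early embryos, had 283, 96.9, 103 and 173. None of the 4 passed 2-fold in either pair, and their median log2 change was 0.52 from NGO to FGO and -0.34 from GO1 to GO2. Of all genes tested, 17.9 % were past 2-fold higher and 16.8 % lower from NGO to FGO, and 7.05 % and 2.92 % from GO1 to GO2.

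18 relatives of Nlrp5 and Nlrp2 were listed, and only Nlrp14 stood above Nlrp5, with RPKM of 1780 in NGO, 1623 in GO1, 1562 in GO2 and 1413 in FGO. From NGO to FGO 14 of them were tested, of which 3 were at least 4-fold higher, beside 8.71 % of all genes tested, and none was at least 4-fold lower, beside 5.59 %. Their median log2 change was 1.18. Nlrp9c had 3.30 RPKM in NGO, 23.1 in GO1, 32.5 in GO2 and 45.1 in FGO (14.2-fold higher in FGO than in NGO). Nlrp9a went from 12.9 to 58.1 between NGO and FGO (4.69-fold higher). Nlrp3, a gene of the inflammasome, was also past 4-fold but had only 3 counts in NGO and 34 in FGO. Nlrp4f was at 323 to 406 RPKM in each library. Nlrp2 had lower RPKM in NGO than in the other 3 libraries. So did Nlrp9a, Nlrp9b, Nlrp9c, Nlrp4a, Nlrp4b, Nlrp4e, Nlrp4f and Nlrp4g, and at no more than 0.280 RPKM Nlrp3 and Nlrp12. Nlrp5, Nlrp14 and Nlrp4c were highest in NGO, as were Nlrp6, Nlrp10 and Nlrx1 at no more than 0.0772 RPKM. These orders mix both protocols. Between GO1 and GO2, 1 of 13 tested relatives passed 4-fold (Nlrx1, with 4 and 38 counts), beside 1.67 % of all genes higher in GO2.

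**Figure D4:**
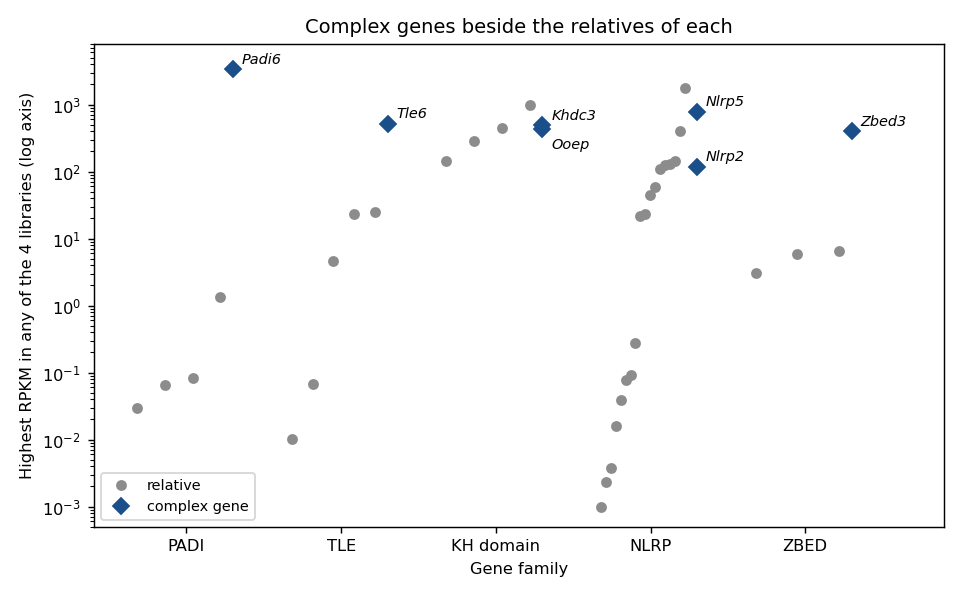
Highest RPKM reached in any of the 4 libraries (log axis) by each complex gene (diamonds) and by each listed relative (circles), grouped by family on the horizontal axis. Padi6, Tle6 and Zbed3 stand above all of their relatives, Khdc1b stands above Ooep and Khdc3, and Nlrp14 above Nlrp5.

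Genes linked to the complex or to the lattices by their proteins were likewise abundant. The 7 genes of this list summed to 3995 RPKM in NGO, 4058 in GO1, 3779 in GO2 and 3194 in FGO. None passed 2-fold in either pair, and their median log2 change was -0.37 from NGO to FGO and -0.15 from GO1 to GO2. Past 2-fold were 17.9 % of all genes higher and 16.8 % lower from NGO to FGO, and 7.05 % and 2.92 % from GO1 to GO2. Nlrp14, whose protein is known to bind UHRF1, was the highest. Dnmt1, the maintenance DNA methyltransferase, had RPKM of 845 in NGO, 848 in GO1, 824 in GO2 and 559 in FGO. Skp1a, a subunit of SCF ubiquitin ligases, was at 533.8 to 629 in all libraries, and Uhrf1 was at 158 to 247.

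Of 10 regulators of actin, which the complex is known to act on through cofilin, Cfl1 itself had RPKM of 149 in NGO, 109 in GO1, 123 in GO2 and 100.4 in FGO. 1 of the 10 was at least 4-fold higher in FGO than in NGO, beside 8.71 % of all genes: Spire2, an actin nucleator of the oocyte, with RPKM of 1.09, 1.44, 3.27 and 6.25 from NGO to FGO (5.94-fold). None was at least 4-fold lower, beside 5.59 % of all genes, and the median log2 change was -0.28. None passed 4-fold from GO1 to GO2, beside 1.67 % of all genes higher and 0.271 % lower. The median log2 change of -0.03 in this pair turned to 0.0094 on deposited RPKM without scaling.

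Among 12 other maternal effect and maternal RNA genes, none passed 4-fold in either pair. From NGO to FGO 8.71 % of all genes tested were past 4-fold higher and 5.59 % lower, and from GO1 to GO2 1.67 % and 0.271 %. From NGO to FGO 3 were at least 2-fold higher, namely Zar1l, Oosp1 and Btg4, beside 17.9 % of all genes. 1, Zfp36l2, was at least 2-fold lower, beside 16.8 %. Dppa3 had RPKM of 844 in NGO, 960 in GO1, 807 in GO2 and 461 in FGO, and Npm2, which encodes a histone chaperone of the egg, had 685, 874, 799 and 548. Oosp1, an oocyte-secreted protein gene, had 254, 410, 416 and 699.6. Btg4, an adaptor of maternal mRNA decay, had 223, 547, 562 and 525. The median log2 change of the list was 0.26 from NGO to FGO, where that of the complex genes was -0.43, and 0.06 from GO1 to GO2.

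Of 8 transcription factors of the oocyte, 3 were at least 4-fold lower in FGO than in NGO, beside 5.59 % of all genes tested, and none was at least 4-fold higher, beside 8.71 %. Sohlh1, a basic helix-loop-helix factor of early follicles, had RPKM of 78.0 in NGO, 2.35 in GO1, 1.09 in GO2 and 0.577 in FGO (128.5-fold lower in FGO). Its partner Sohlh2 went from 12.1 to 2.01 (5.79-fold lower). Figla, an E-box binding factor of zona pellucida genes, had 102, 38.9, 23.6 and 20.6 (4.76-fold lower). Nobox, a homeobox factor, stayed at 101 to 125. The median log2 change of the list was -0.85 from NGO to FGO and -0.15 from GO1 to GO2. None of the 8 passed 4-fold from GO1 to GO2, beside 1.67 % of all genes higher and 0.271 % lower.

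Genes next to the complex genes on the chromosome were mostly low, but so were listed genes in general, whose median RPKM was at most 0.173 in a library. The 28 neighbours were taken as the nearest 2 listed genes on each side, without the overlapping genes named above. Of them 8 were listed at 0 in each library, beside 4564 of all 25587 listed genes. An RPKM of 1 in a library was reached by 8, and 1, Dppa5a, reached 100. Of all 25587 listed genes, 10764 reached both an RPKM of 1 and 100 counts in a library. The number of all listed genes that reached an RPKM of 100 was not taken. Nothing particular to these surroundings is read from these counts. Dppa5a lies 7931 bases from Ooep. Rcc2, a regulator of chromosome condensation 4134 bases from Padi6, had RPKM of 61.2 in NGO, 31.3 in GO1, 28.1 in GO2 and 41.2 in FGO, whereas Padi4, 3221 bases away on the other side, was at most at 0.0840. Tle2 lies 58 bases from Tle6 and was at most at 0.0669. Next to Nlrp5, Nlrp4e had 9.46, 21.6, 19.6 and 18.3, and the 2 vomeronasal receptor genes on the other side were listed at 0. Beside Khdc3, Rab27a was at 17.3 to 25.5 and Rsl24d1 at 20.3 to 26.5. Beside Zbed3, Aggf1 was at 8.29 to 9.67 and Pde8b at 1.11 to 1.56, and Sirt6 near Tle6 was at 1.01 to 7.56. The 4 neighbours of Nlrp2 are vomeronasal receptor genes, of which only Vmn1r58 was above 0 (at most 0.238).

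Markers of other cells were far below the complex genes. Cyp19a1, the aromatase of granulosa cells, had RPKM of 0.518 in NGO, 1.08 in GO1, 3.13 in GO2 and 6.08 in FGO (12.1-fold higher in FGO than in NGO). It was the 1 of 8 granulosa markers at least 4-fold higher, beside 8.71 % of all genes. The list was not uniform: at 2-fold 4 of the 8 were higher, beside 17.9 % of all genes. At least 2-fold lower was 1, Foxl2 (21 counts in NGO and 8 in FGO), beside 16.8 %. Among 7 theca and stroma markers, Col1a1, Col1a2, Col3a1 and Dcn were at least 4-fold lower in FGO than in NGO, beside 5.59 % of all genes. Col1a1 was the highest of them in NGO at 2.24. The rest of this list did not share the decrease: Pdgfra was 1.20-fold lower, and Star was 1.28-fold higher (42 and 56 counts). Cyp17a1 had too few counts to be tested (2 in NGO and 0 in FGO). Pecam1, listed as an endothelium marker, was at 1.74 in NGO and 9.70 in FGO (5.79-fold higher). It was thus past 4-fold, beside 8.71 % of all genes. Kdr of the same list was 3.81-fold higher, but at only 0.0286 and 0.108 RPKM (23 and 94 counts). At 2-fold both were higher, beside 17.9 % of all genes. Cdh5 was at or below 0.0408 and had too few counts to be tested. Hba-a1 had 81 counts in NGO and none in FGO, and the 4 immune markers summed to at most 0.789. The lowest complex gene value, Nlrp2 in NGO, was 40.7.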

How the data were processed

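RNA-Seq libraries of NGO, GO1, GO2 and FGO (1 per stage) were analysed, grouped by the labels. The authors deposited linear RPKM values, after trimming of reads by Trim Galore 0.2.8 and mapping to GRCm38 by TopHat2 2.0.9. The program, annotation and strand setting of the gene counting are not given in the sources used here. The values are not counts, although the table is named for them.

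Whole counts were recovered in Python 3.11.15 (numpy 2.4.6, pandas 2.3.3, scipy 1.17.1; plots in matplotlib 3.10.9). Library totals were fitted on genes with 1 exon in GENCODE M21, of whose values above 0 between 99.5 % and 99.7 % came out within 0.05 counts of a whole number. For other genes an exon length was sought that made counts whole in all libraries, within a tolerance that widened to 0.2 for large counts. Of 21023 genes above 0 in any library, 12648 took the exon union, 3711 a transcript, 1234 a union of transcripts, 149 the span, 2997 the fitting length nearest the union, and 284 the smallest fitting length. All 7 complex genes matched annotated models. A gene's length scales its counts equally in all libraries, so it affects intervals and minimums. It enters changes only through the prior count, mainly at low counts, and through the scaling over all genes.

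Changes are log2 count ratios with a prior count of 1, after scaling by the trimmed mean of the ratios (30 % of ratios and 5 % of levels removed at each end), for genes that had 20 counts or more in a pair. The scaling moved the log2 ratio of library sizes by -0.06 (NGO to FGO) and 0.03 (GO1 to GO2) against the deposited RPKM. The log2 changes moved by as much in the opposite direction. A gene counted as past the threshold at 4-fold, with 2-fold beside it. Intervals are 95 % exact intervals (Poisson for levels, Clopper-Pearson for ratios), for counting error only. The fitted library totals exceed the uniquely mapped reads given by the study, even with both mates counted. The counts are therefore in the unit of the deposited values, not independent reads, and the intervals are too narrow. Counts were also simulated for NGO to FGO with Poisson noise only and 8-fold changes set in well counted genes (15337 genes tested). All 200 changed genes were found, and 1 unchanged gene was called. This checks the calculation only and cannot show the error of single libraries.

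The complex genes and all lists were chosen with earlier results of these data known. Of each list the text names genes past 4-fold and otherwise at most the 4 highest. Further genes were added after their values were seen. Among them were Tle1, Nlrp9b, Nlrp4a, Nlrp4b, Nlrp4c, Nlrp4g, Nlrp6, Nlrp10, Nlrp12, Zar1l, Zfp36l2, Cdh5, Kdr and the low neighbours. Zbed2, Hbb-bs and Hbb-bt were not matched. Promoter windows are from RefSeq (GRCm38.p6), in which all 7 genes were found. Protein sequences were planned but not used here. The alternatives tried were other scalings, count minimums, thresholds, prior counts, pseudocounts and units.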

Additional observations from a re-analysis of the deposited data

How the results depend on the processing

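All values rest on 1 library per stage, so leaving out a replicate was not possible, and no paired analysis was possible because each stage has a single library and no result comes from a test. The comparison of protein sequences was not run. Of 49 log2 changes of single complex genes under other settings from NGO to FGO, all 49 kept their direction, and of 49 from GO1 to GO2, 47 did. Nlrp2 turned from -0.06 to 0.017 on the total of recovered counts and 0.00996 on the total without mitochondrial and the most counted genes.

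The median log2 change of the complex genes from NGO to FGO was -0.49 on deposited RPKM, -0.41 with the median of log ratios, -0.54 with the total, -0.55 with the total without mitochondrial and most counted genes and -0.46 with a pseudocount of 1. From GO1 to GO2 these values were -0.37, -0.39, -0.32, -0.33 and -0.38. A prior count of 5 and a pseudocount of 0.1 left both medians within the counting interval of the middle gene. The number of complex genes past the threshold stayed at 0 in each direction of each pair, except that a 2-fold threshold gave 1 higher and 1 lower from NGO to FGO.

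The share of all genes higher in FGO than in NGO was 17.9 % at 2-fold, 4.47 % at 8-fold and 5.48 % with an RPKM of at least 1, and the share lower was 16.8 %, 2.31 % and 2.41 %. From GO1 to GO2 the share higher was 7.05 % at 2-fold, 0.442 % at 8-fold, 0.665 % with at least 100 counts, 4.53 % with at least 1 count, 0.317 % with an RPKM of at least 1 and 0.909 % with a prior count of 5. The share lower was 2.92 %, 0.0631 %, 0.0449 %, 1.11 %, 0.0306 % and 0.139 % in the same order. The complex genes took 2.39 %, 1.40 %, 1.21 % and 1.18 % of counts in NGO, GO1, GO2 and FGO, where their share of RPKM was 3.03 %, 1.99 %, 1.69 % and 1.55 %. Each complex gene stayed at or above the 95.5th percentile of genes under either other ranking. The cause of these differences was not tested.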
